A study of Rattus norvegicus with 6 samples.

Results

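Cathepsins are the main proteases of the lysosome, and legumain is the lysosomal enzyme that cuts after asparagine. The genes described here were the 9 cathepsins Ctsa, Ctsb, Ctsc, Ctsd, Ctsh, Ctsk, Ctsl, Ctss and Ctsz together with legumain (Lgmn), 10 of the 21857 genes in the count files, and they were found by their symbols. They were compared in neonatal rat cardiac fibroblasts (NRCFs), primary cells from the hearts of rats up to 3 days old, which were transfected either with Vector plasmid (3 libraries, genotype label WT) or with a plasmid carrying FTO, by the study's methods rat cDNA in pcDNA 3.1 (3 libraries, genotype label FTO overexpression). All 6 libraries thus came from transfected primary cultures, collected at a single time after transfection. By the study's methods the cells were purified by differential adhesion, and markers of other cell types are given below. The design text gives Sprague-Dawley rats while the strain label reads Noway. FTO removes the m6A mark from RNA, and the study asked which genes change when it is raised.

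Cathepsins are made as inactive precursors, tagged with mannose-6-phosphate in the Golgi, carried to the lysosome and activated there by acid pH and by cleavage, some of it by legumain or by other cathepsins. They differ in chemistry. Ctsd is an aspartic protease, Ctsa a serine carboxypeptidase, and the others of the family measured here are papain-like cysteine proteases. In fibroblasts they degrade collagen and other matrix proteins that are taken up by endocytosis, and in macrophages they also digest antigens. Cystatins hold the cysteine cathepsins in check once these leave the lysosome.

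The libraries held 13178952 to 17857999 counts, and 12941 genes were tested. Fto itself was at 88.3 ± 1.20 CPM (counts per 1e6 library counts, TMM-normalized, mean ± SD, n = 3) in Vector and at 92.3 ± 1.32 CPM under the FTO label, without overlap, a fold change of 1.05 with an adjusted p-value of 0.239. A rise of its mRNA was therefore not detected in these counts, and the second group is named below by its label. The study itself checked the transfection by qRT-PCR and by the level of FTO protein, and reported less m6A with the FTO plasmid by dot blot. The fibroblast label was checked on 11 fibroblast markers. All 11 were detected, with Col1a1 at 25809 CPM in Vector, but under the FTO label 6 of them rose and 5 fell, and Dcn moved from 47.0 to 5611 CPM. Of 6 cardiomyocyte markers 5 were higher and 1, Tnnt2, was lower, with Tnnt2 still at 649 CPM. The higher ones were Myh6 (192 to 496 CPM), Actc1 (259 to 537 CPM), Nppa (271 to 658 CPM), Tnni3 (7.53 to 28.0 CPM) and Myl2 (5.83 to 13.2 CPM). Of 5 endothelial markers tested 3 were higher and 1 lower, and of 4 mural cell markers 2 were higher and 2 lower. Over all genes tested 33.2% were higher and 32.8% lower by the same test. Nothing in the labels says that replicates were separate cultures, so the p-values measure the spread between libraries, which may be technical.

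The cathepsins moved in different directions. Ctsh, Ctsk and Ctsl rose in the libraries labelled FTO, Ctss fell 4.24-fold and Ctsd 2.01-fold, and Lgmn, Ctsz, Ctsb and Ctsa fell by smaller amounts. Ctsc did not pass the test. Of the 10 genes, all tested, 9 had an adjusted p-value under 0.05 (quasi-likelihood test of edgeR), 3 higher and 6 lower. Over all genes tested 65.9% passed, 33.2% higher and 32.8% lower, so a high count of calls is the general state of this comparison. Counts for the gene lists below are to be read beside these shares. The study's threshold asks for a 2-fold change in either direction and an unadjusted p-value under 0.05. Of the 10 genes 4 passed it, against 19.6% of all genes. In each of the 10 the groups did not overlap in CPM, as in 70.3% of all genes. The median log2 fold change of the 10 was -0.15, beside 0.00 over all genes tested.

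**Figure D1:**
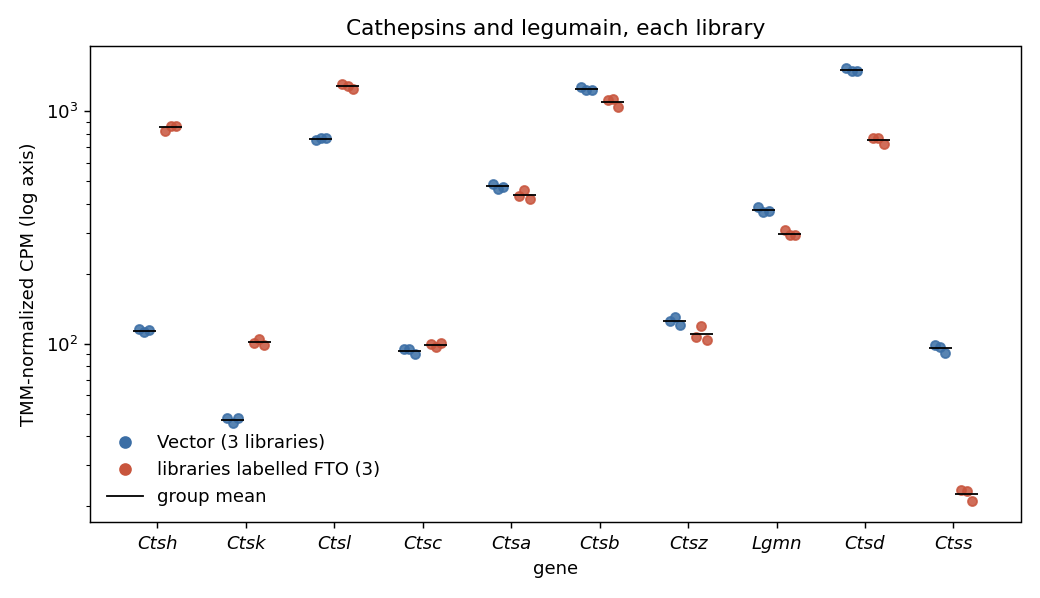
TMM-normalized CPM of each gene (log axis) in the 3 Vector libraries and the 3 libraries labelled FTO, with group means as bars and genes ordered by fold change. Ctsh stands apart, from about 114 to 853 CPM on the means, and Ctss falls from 95.7 to 22.6 CPM.

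Ctsh, Ctsc and Ctsz are cysteine proteases that act as exopeptidases, which trim residues from the ends of proteins. Ctsh, an aminopeptidase with some endopeptidase activity, was at 115, 112 and 115 CPM in the 3 Vector libraries and at 827, 867 and 866 CPM in those labelled FTO. Every library labelled FTO lay far above every Vector library. The rise was 7.48-fold (log2 fold change 2.90, SE 0.0428), with an adjusted p-value of 4.0e-17, and it ranked 341st from the top among the 12941 genes by fold change. Ctsc, or dipeptidyl peptidase I, which activates the serine proteases of immune cell granules, was at 94.7, 95.3 and 90.4 CPM in Vector and at 99.4, 96.7 and 100.5 CPM under the FTO label. Its groups lay side by side without overlap. The adjusted p-value of Ctsc was 0.146, and the 95% interval of its fold change ran from 0.986 to 1.14. Ctsz, a carboxypeptidase, was at 125, 131 and 120 CPM in Vector and at 107, 119 and 104 CPM under the FTO label. The highest library labelled FTO nearly met the lowest Vector library, and the log2 fold change was -0.19 (SE 0.0563, adjusted p-value 0.00696).

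Ctsb, Ctsk, Ctsl and Ctss are papain-like enzymes that cut within proteins. Ctsk, the collagen-degrading cathepsin best known from osteoclasts and also made by fibroblasts, was at 48.0, 45.6 and 47.9 CPM in Vector. In the libraries labelled FTO it was at 101, 105 and 98.8 CPM, so that each of these held about 2 times the Vector level. The log2 fold change of Ctsk was 1.11 (SE 0.0530, adjusted p-value 5.4e-11). Of the 7 genes on the osteoclast list Calcr and Dcstamp had 0 counts in all 6 libraries, and Ocstamp was at 0.738 CPM in Vector and 0.347 CPM under the FTO label. The other 4 were tested. Itgb3, an integrin subunit that many cell types make, fell from 66.8 to 17.0 CPM and Oscar from 1.43 to 0.774 CPM. Atp6v0d2, a proton pump subunit, rose from 0.869 to 3.09 CPM, and Acp5 was at 7.15 and 6.72 CPM without passing the test.

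Ctsl, a broad endopeptidase that also matures other lysosomal enzymes, was at 752, 765 and 770 CPM in Vector and at 1312, 1291 and 1254 CPM under the FTO label. The groups were widely separate, with a 1.69-fold rise (log2 fold change 0.75, SE 0.0377, adjusted p-value 9.0e-11). The rodent placental cathepsins, which lie close to Ctsl in sequence, gave almost no reads. Cts8, Ctsj, Ctsm, Ctsq, Ctsr and Ctsql2 were at 0 counts in all 6 libraries. Ctsb, usually among the most read cathepsins of any cell, was at 1270, 1234 and 1231 CPM in Vector and at 1117, 1135 and 1041 CPM under the FTO label. The decrease was small beside those of Ctss and Ctsd, at a log2 fold change of -0.18 (SE 0.0416, adjusted p-value 0.00130).

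Ctss, which stays active at neutral pH and trims the invariant chain in antigen-presenting cells, fell most. It was at 99.3, 96.6 and 91.4 CPM in Vector and at 23.4, 23.3 and 21.2 CPM under the FTO label. All 3 of the latter lay between 22.1% and 24.5% of the Vector mean. The log2 fold change was -2.09 (SE 0.0637, adjusted p-value 2.1e-13), which placed Ctss 379th from the bottom of the 12941 genes.

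The aspartic protease Ctsd and Lgmn, a cysteine endopeptidase of another family than the papain-like cathepsins, were both lower. Ctsd, the main aspartic protease of the lysosome, was at 1544, 1491 and 1497 CPM in Vector and at 769, 766 and 722 CPM under the FTO label. The decrease was 2.01-fold (log2 fold change -1.01, SE 0.0401, adjusted p-value 5.5e-12). It lay on the edge of the study's threshold, with a 95% interval of the log2 fold change from -1.09 to -0.92. Without scaling by TMM it was -0.998, without Vector replicate 1 it was -0.99 and without FTO replicate 3 it was -0.98, which left 3 genes past that threshold in place of 4. Lgmn, which splits several cathepsins into their heavy and light chains, was at 390, 370 and 372 CPM in Vector and at 308, 294 and 293 CPM under the FTO label. The groups were separate, with a log2 fold change of -0.34 (SE 0.0415, adjusted p-value 3.5e-06).

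Ctsa is also called protective protein because it shields the sialidase Neu1 and the beta-galactosidase Glb1 in a complex. It was at 487, 466 and 475 CPM in Vector and at 432, 458 and 421 CPM under the FTO label, close together but without overlap. The log2 fold change was -0.12 (SE 0.0424, adjusted p-value 0.0177). The call on Ctsa was lost without Vector replicate 1 (adjusted p-value 0.0745) and without FTO replicate 1 (0.0542), and the lowest and highest of its 13 alternatives were 9.9e-04 and 0.0745. Its partners were lower as well, Neu1 by a log2 fold change of -1.33 (SE 0.0693) and Glb1 by -0.15 (SE 0.0414), with an adjusted p-value of 0.0053 for Glb1.

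**Figure D2:**
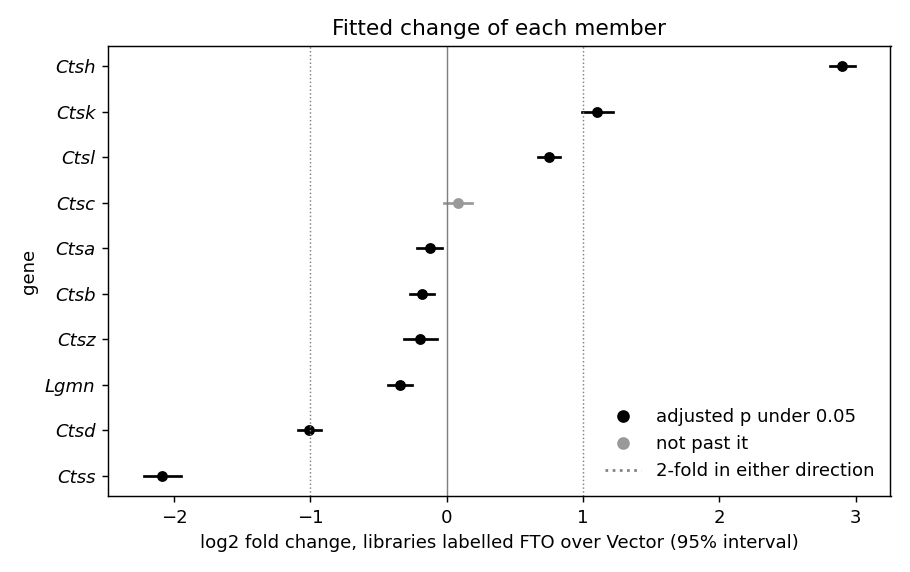
Fitted log2 fold change of each gene, libraries labelled FTO over Vector, with its 95% interval, and dotted lines at a 2-fold change. Ctsh at 2.90 and Ctss at -2.09 are the extremes, and the interval of Ctsd crosses the lower dotted line.

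The sum over the 10 genes hardly moved while its make-up did. Summed CPM was 4847 ± 67.7 in Vector and 5057 ± 121 in the libraries labelled FTO (SD, n = 3), a ratio of 1.04. Of the counts assigned to the 10 genes, Ctsd took 31.2% ± 0.166 in Vector and 14.9% ± 0.214 in the libraries labelled FTO. Ctsl went from 15.7% ± 0.411 to 25.4% ± 0.356, and Ctsh from 2.35% ± 0.0265 to 16.9% ± 0.692. These shares grow with transcript length, which was not used, so they compare a gene with itself and not genes with each other.

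Ratios of counts within a library need no scaling, and 3 were computed after the values were seen. The Ctsk to Ctss ratio was 0.483, 0.473 and 0.523 in Vector and 4.30, 4.52 and 4.67 in the libraries labelled FTO, a 9.12-fold difference. The Ctsl to Ctsd ratio was 0.505 ± 0.0157 in Vector and 1.71 ± 0.0262 in the libraries labelled FTO (SD, n = 3). The Ctsh to Ctss ratio was 1.19 ± 0.0532 and 37.8 ± 2.87 (SD, n = 3), respectively. Each ratio sets a gene that rose without overlap over a gene that fell without overlap, so their separation was fixed by that choice and is given without a test.

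Promoter sequences of the 4 genes past the study's threshold are shown because these genes moved furthest and in opposite directions, and because Ctsk and Ctss are neighbours on chromosome 2, with 1 predicted coding gene between them. The sequences are those of RefSeq on the build GRCr8, matched for 9 of the 10 genes, all but Ctsb, and run on the coding strand from 250 bases before the transcript start to 50 bases after it. They lie at chr8:99488506-99488805 (plus strand) for Ctsh, chr2:185747298-185747597 (plus strand) for Ctsk, chr1:206968772-206969071 (minus strand) for Ctsd and chr2:185775146-185775445 (plus strand) for Ctss. The counts themselves were made on another build, rn6. Capitals mark matches on either strand to CACGTG (the E-box core bound by TFEB and its relatives), GAAA, any 2 bases and GAAA (the core bound by interferon regulatory factors) and GAGGAAG (a site of PU.1 and other ETS factors).
Ctsh: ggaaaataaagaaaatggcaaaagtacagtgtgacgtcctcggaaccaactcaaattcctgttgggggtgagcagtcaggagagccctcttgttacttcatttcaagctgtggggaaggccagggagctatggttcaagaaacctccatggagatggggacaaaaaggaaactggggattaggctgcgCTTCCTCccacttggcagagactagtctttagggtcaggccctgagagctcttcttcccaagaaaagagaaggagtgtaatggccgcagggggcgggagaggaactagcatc
Ctsk: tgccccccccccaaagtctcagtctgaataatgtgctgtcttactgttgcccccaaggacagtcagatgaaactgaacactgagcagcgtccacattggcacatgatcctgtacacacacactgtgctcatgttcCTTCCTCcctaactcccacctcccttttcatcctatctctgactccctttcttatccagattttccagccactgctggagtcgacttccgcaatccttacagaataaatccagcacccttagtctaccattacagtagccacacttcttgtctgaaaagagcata
Ctsd: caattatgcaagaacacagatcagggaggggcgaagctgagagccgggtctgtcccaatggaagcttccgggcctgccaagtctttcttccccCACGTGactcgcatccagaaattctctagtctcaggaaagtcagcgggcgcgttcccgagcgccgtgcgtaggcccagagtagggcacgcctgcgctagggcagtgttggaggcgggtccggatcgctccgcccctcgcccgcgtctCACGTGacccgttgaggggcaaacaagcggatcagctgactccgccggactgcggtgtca
Ctss: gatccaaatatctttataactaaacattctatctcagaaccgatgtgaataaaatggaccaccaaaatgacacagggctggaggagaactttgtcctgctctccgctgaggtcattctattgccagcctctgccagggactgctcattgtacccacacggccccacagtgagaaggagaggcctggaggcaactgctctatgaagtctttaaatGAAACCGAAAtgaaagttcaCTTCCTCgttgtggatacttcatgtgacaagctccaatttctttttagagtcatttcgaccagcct

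The Ctsd promoter held CACGTG at 157 and at 10 bases before the start, counted to the first base of the match, and was the only 1 of the 9 with this motif, which 6.42% of 33469 promoters of the same length hold. The Ctss promoter alone held the GAAA pair, 36 bases before the start, a motif of 3.92% of promoters. It was followed within the same stretch by GAGGAAG read on the other strand, 16 bases before the start. GAGGAAG occurred in 5 of the 9 promoters, those of Ctsc, Ctsh, Ctsk, Ctss and Ctsz, and in 12.4% of all promoters. The promoters of the neighbours Ctsk and Ctss thus both held GAGGAAG. These matches describe letters in the window and were not tested as binding sites. Their relation to the changes of the genes was not tested either.

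Factors that bind such sites were among 11 regulators listed, of which 10 were tested, 5 rose and 3 fell, with a median log2 fold change of 0.17. Spi1, which encodes the myeloid factor PU.1, fell from 28.4 ± 1.24 to 6.22 ± 0.566 CPM (log2 fold change -2.20, SE 0.0999), the lowest of the list. Irf1 and Irf8, the interferon regulatory factors listed, both rose. Their log2 fold changes were 0.97 (SE 0.0685) and 0.56 (SE 0.126), both past the adjusted threshold. Of the factors that drive lysosomal genes, Tfe3 rose by 0.82 (SE 0.0706), while Tfeb changed by -0.51 (SE 0.140) and Mitf by -0.45 (SE 0.104), each past the adjusted threshold. Whether any of these factors acts on the cathepsins or Lgmn was not tested.

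Macrophages express Ctss, Lgmn, Ctsz and Ctsc strongly, as they do other cathepsins, and these genes were set beside macrophage markers. The members left out moved both ways. By log2 fold change Ctsh (2.90), Ctsk (1.11) and Ctsl (0.75) rose, and Ctsd (-1.01), Ctsb (-0.18) and Ctsa (-0.12) fell. Under the FTO label 15 of the 16 markers tested were lower and 1, Adgre1, was higher (log2 fold change 2.22, SE 0.133), with a median log2 fold change of -2.02, also when C1qb and C1qc, whose counts there never exceeded 3, were set to the bound that this floor gives. Summed over the list the level was 2099 to 2169 CPM in Vector and 377 to 420 CPM under the FTO label. Csf1r, which macrophages need to survive, went from 142 ± 2.31 to 9.18 ± 1.29 CPM, Ptprc, the pan-leukocyte CD45, from 55.0 ± 1.04 to 15.1 ± 1.68 CPM, and C1qa from 56.4 ± 3.24 to 1.44 ± 0.279 CPM.

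Ctss at 22.1% to 24.5% of its Vector mean lay among these markers, beside Mrc1 at 23.5% to 25.4%, Laptm5 at 23.2% to 27.5% and Ptprc at 23.9% to 29.2%. The markers that fell spread widely, with C1qa at 1.98% to 2.86%, Csf1r at 5.55% to 7.37% and Cd68 at 40.5% to 51.6%. Cybb, which is not drawn, had a fold change of 0.559. Lgmn at 77.6% to 81.6%, Ctsz at 82.8% to 94.8% and Ctsc at 103% to 108% lay above all of these values. In bulk libraries fewer macrophages, less RNA per macrophage and a lower level in the other cells cannot be told apart. The part of each in the decrease of Ctss, Lgmn or Ctsz was not tested.

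**Figure D3:**
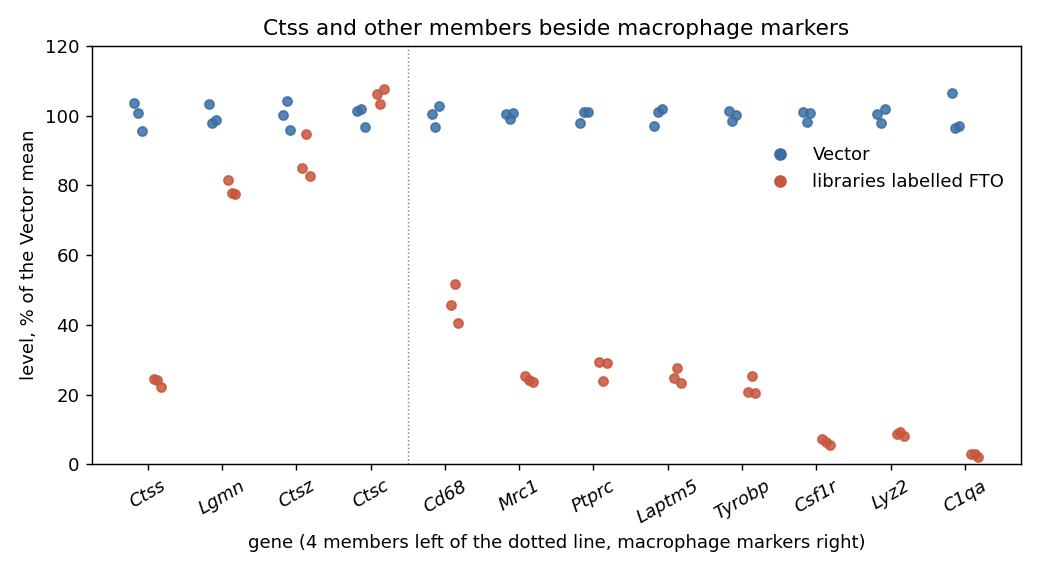
Level of 4 members and of 8 of the 16 macrophage markers in each library, as a percentage of the gene's own Vector mean (linear axis). Ctss sits at 22.1% to 24.5% with Mrc1, Ptprc, Laptm5 and Tyrobp, while Lgmn lies at 77.6% to 81.6%, Ctsz at 82.8% to 94.8% and Ctsc at 103% to 108%; Adgre1, which was higher, is not drawn.

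By the distance between profiles of log2 CPM over the 6 libraries, each minus its own Vector mean, the 3 genes nearest to Ctss among 10041 others with at least 100 counts on average were Mrc1 (distance 0.134), Jun (0.152) and Fbln2 (0.175). Their log2 fold changes lay between -2.04 and -2.00. The 3 nearest to Ctsh were RT1-A1 (0.112), a class I histocompatibility gene whose reads may be shared with its paralogs, Ackr4 (0.123) and B2m (0.129), the class I light chain, at 2.88, 2.96 and 2.90. With only 2 groups, such likeness mostly reflects an equal fold change.

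Antigen presentation on MHC class II, in which Ctss acts, was barely expressed. Of 11 genes listed 2 were tested, Cd74, the invariant chain itself, at 0.212 ± 0.0793 and 0.818 ± 0.0319 CPM, a rise between levels near the 3-count floor, and Ifi30, a lysosomal thiol reductase, which fell from 110 ± 6.23 to 57.4 ± 8.84 CPM (log2 fold change -0.95, SE 0.0841). RT1-DMb and RT1-DOb had 0 counts in all 6 libraries.

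Among the inhibitors 6 of 14 listed genes were tested, 3 rose and 2 fell, with a median log2 fold change of 0.35. Cst3, the secreted cystatin C, rose from 154 ± 3.65 to 248 ± 8.09 CPM (log2 fold change 0.69, SE 0.0435, adjusted p-value 1.6e-09). Cstb, the cytosolic stefin B, was at 165 ± 10.7 and 167 ± 12.7 CPM and did not pass. Serpinb9, known as a granzyme B inhibitor, rose from 69.7 ± 2.69 to 163 ± 10.6 CPM, and Serpinb6 fell from 141 ± 2.29 to 109 ± 11.3 CPM. The largest changes of the list were in genes averaging under 100 counts. Ctla2a rose from 1.37 ± 0.224 to 6.80 ± 0.892 CPM (log2 fold change 2.29). Serpinb1a fell from 6.72 ± 0.136 to 2.62 ± 0.579 CPM (log2 fold change -1.36). Of 13 other cathepsins 1 was tested, Ctsf, at 85.6 ± 1.79 and 83.7 ± 3.37 CPM, with an adjusted p-value of 0.561.

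The rest of the lysosome also moved both ways and by less than Ctsh and Ctss. So did all genes tested, with 33.2% higher and 32.8% lower. Of 37 other hydrolases and their cofactors tested, 15 rose and 14 fell, with a median log2 fold change of -0.02. Within this list the acid sphingomyelinase Smpd1 rose most (0.97, SE 0.0456) and Neu1 fell most (-1.33, SE 0.0693), while prosaposin (Psap) stayed at 1636 ± 11.4 and 1611 ± 31.9 CPM with an adjusted p-value of 0.616.

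Of 18 lysosomal membrane genes 9 rose and 6 fell (median 0.13), from Laptm4a at 0.62 (SE 0.0386) to Laptm5 at -2.00 (SE 0.0634), the latter also on the macrophage list. Of 17 proton pump genes 9 rose and 6 fell (median 0.17), with Atp6v1g1 at 1.12 (SE 0.0434) and Atp6v1b2 at -0.52 (SE 0.0432). Of 13 tagging and sorting genes 4 rose and 6 fell (median 0.00). Gnptg, a subunit of the enzyme that adds the mannose-6-phosphate tag, rose by 0.55 (SE 0.0849). Sort1, the receptor sortilin, which carries lysosomal proteins from the Golgi, changed by -1.65 (SE 0.0475), from 195 ± 3.61 to 61.9 ± 2.35 CPM, and Igf2r, the large mannose-6-phosphate receptor, by -0.25 (SE 0.0763).

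**Figure D4:**
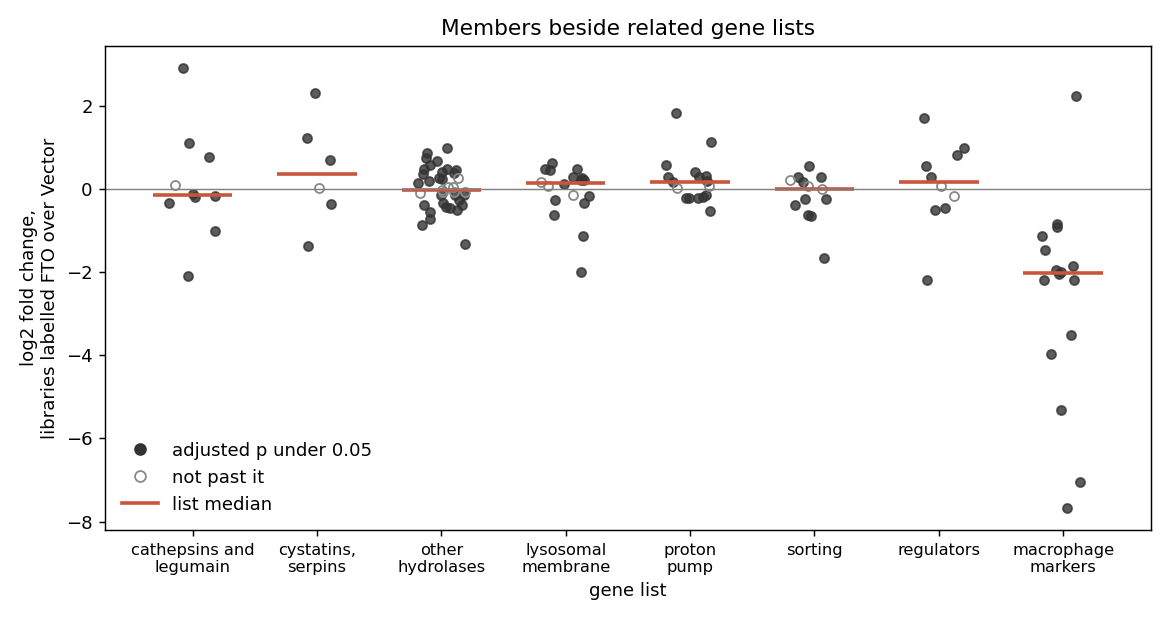
Fitted log2 fold change of each tested gene, libraries labelled FTO over Vector, by gene list, with filled points past the adjusted threshold and the list median as a bar. The medians of the lysosomal lists lie between -0.15 and 0.35 while that of the macrophage markers is -2.02; its lowest 2 points, C1qb and C1qc, are fitted values of genes at the floor.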

How the data were processed

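RNA-seq of total RNA was analysed from 6 libraries, grouped by the genotype label. The files the authors deposited hold raw counts by gene symbol. The submitters' processing notes name Trimmomatic and the build rn6. The aligner, the counting program, the annotation and strand handling are not given in the sources used here, so genes with close paralogs or antisense partners are uncertain.

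Genes were kept with filterByExpr (minimum count 10), which held 99.9% of the counts, normalized with TMM (trimmed mean of M values, factors 0.995 to 1.01) and compared across all genes with the two-sided quasi-likelihood test of edgeR 4.0.16 in R 4.3.3, with Benjamini-Hochberg adjustment over the 12941 genes tested. The SE is the absolute log2 fold change over the root of F. A floor of 3 counts was worth 0.168 to 0.228 CPM, and intervals cover counting error and replicate spread only. The procedure was run on simulated data in which far fewer genes changed than were called here. How it behaves when most genes change was not checked. Shares per kb of coding length, part of the planned analysis, were not computed because coding lengths were not used here.

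Genes named are the 10 members, Fto, the highest and lowest gene of each related list past the adjusted threshold (no overlap, at least 100 counts), defining markers and the nearest profiles, others being singled out after their values were seen. The highest regulator and 1 motif are not reported here. Lists were those of other cathepsins, inhibitors, hydrolases, membrane, proton pump, sorting, regulator and MHC class II genes and of cell type markers. Members and lists were chosen with earlier results of these data known.

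Alternatives were DESeq2 1.42.0, limma-voom (limma 3.58.1), other scalings and filters, the replicate number as a block, and leaving out each library. Same-numbered libraries did not deviate together (correlations of deviations 0.00284, -0.0693 and 0.0207).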

Additional observations from a re-analysis of the deposited data

How the results depend on the processing

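Under the 13 alternatives the direction was the same for each of the 10 genes and for Fto. Calls on 9 of the 10 genes did not change under any of them, the exception being Ctsa without Vector replicate 1 or FTO replicate 1. Log2 fold changes ran from 2.89 to 2.92 for Ctsh and from -2.12 to -2.04 for Ctss. No pairing by replicate number was seen, though 3 libraries per group cannot exclude one. With the replicate number as a block 9 of the 10 genes passed the adjusted threshold and 4 the study's, as without it. The count of MHC class II genes past the adjusted threshold was 5 without a filter on low counts and 1 when genes averaging under 10 counts were dropped, against 2 as reported, as these genes have few counts and enter or leave the test with the filter.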
